A study of Mus musculus with 18 samples.

Results

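The genes Jchain, Mzb1, Ell2, Eaf2 and Fam46c, whose products assemble, fold, process or stabilise antibody and its mRNA, were described across 3 cell types and 2 genotypes of mouse B lineage cells. They were selected on their gene symbols, as 5 of the 21761 genes in the deposited table, and were picked with their levels by cell type already known, so the levels are given as a description without a test. All 5 of 5 passed the filter on low values, FPKM above 1 in at least 2 libraries, which left 11522 genes. FPKM is the number of reads on a gene scaled by the length of its exons and by the reads counted on all listed genes. The 18 libraries formed 6 groups of 3. Naive B cells (nB) were B220+ GL7- Fas- lymph node cells of unimmunized mice. Cells of the germinal center (GCB) were sorted from lymph nodes as B220+ GL7+ Fas+ and binding the antigen phycoerythrin (PE), and CD138+ plasma cells (BMPC) came from bone marrow. Both were taken 30 days after immunization with PE in complete Freund's adjuvant. All mice carried floxed alleles of both de novo DNA methyltransferases, Dnmt3afl/fl Dnmt3bfl/fl, on a mixed B6;129S4 background. Dnmt3-deficient mice also carried 1 Cre allele that is active in B cells, and their Dnmt3-sufficient littermates carried no Cre. Each library was made from 5000 sorted cells, and every GCB library pooled a pair of mice. The mice were adults by the study's methods.

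Plasma cells are the end stage of the B lineage and turn much of their RNA and their endoplasmic reticulum over to antibody. Jchain encodes the joining chain that links IgM and IgA monomers into polymers. Mzb1 is a chaperone of the endoplasmic reticulum that takes part in antibody folding and secretion. Ell2 is an RNA polymerase II elongation factor that promotes use of the promoter-proximal poly(A) site of the heavy chain gene and so the secreted form of the mRNA, and Eaf2 is a partner of the ELL family. Fam46c, now called Tent5c, is a poly(A) polymerase that lengthens the tails of mRNAs of secreted proteins. On the mouse build mm9 (NCBIM37), Jchain lay at chr5:88949537-88956916 on the minus strand, Mzb1 at chr18:35806920-35809021 on the minus strand and Ell2 at chr13:75844932-75909804 on the plus strand. Eaf2 lay at chr16:36792970-36875089 and Fam46c at chr3:100255551-100293247, both on the minus strand. The values covered the exons of each gene at a summed length deposited with them, which differed from that of the annotation used for these positions. It was 2029 against 6097 bases for Fam46c, 2273 against 4370 for Eaf2 and 5467 against 3647 for Ell2. For Jchain it was 2102 against 1814 bases and for Mzb1 906 against 905. Levels per length rest on the deposited lengths.

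Counted reads numbered 6692516 to 8987922 per nB library, 7644544 to 8903872 per GCB library and 1355231 to 3803197 per BMPC library, so the precision for low genes was poorest in BMPC. Summed markers of each sorted cell type were highest under its own label, though not every single marker was. The summed FPKM of 7 plasma cell markers was 970 to 1731 in BMPC against 59.9 to 93.9 in nB and 89.9 to 125 in GCB. Irf4, 1 of these 7, had a mean of 14.2 FPKM in Dnmt3-deficient BMPC against 24.3 FPKM in Dnmt3-deficient nB. Naive B cell markers summed to 5811 to 6409 FPKM in nB and still to 798 to 1078 FPKM in BMPC. BMPC libraries also held transcripts of other bone marrow cells. Erythroid markers summed to 149 to 2194 FPKM and neutrophil markers to 9.37 to 595 FPKM in BMPC, and 5 early B cell markers to 308 to 627 FPKM. In nB, erythroid markers summed to 22.5 to 218 FPKM in Dnmt3-deficient and 0.468 to 1.42 FPKM in Dnmt3-sufficient libraries, without overlap. FPKM of Dnmt3a and Dnmt3b over all exons overlapped between genotypes in each cell type, except for Dnmt3b in GCB. Dnmt3a in nB was at 2.35 to 5.18 in Dnmt3-sufficient against 2.24 to 4.33 in Dnmt3-deficient libraries. Dnmt3b in GCB was at 0 to 0.676 in Dnmt3-sufficient and, higher, at 0.744 to 1.10 in Dnmt3-deficient libraries. Since exons outside the floxed part are included, these values do not check the deletion. One nB library, Dnmt3-deficient replicate 2, stood apart in Jchain, as described below.

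All 5 genes were highest in BMPC or, for Eaf2, about as high in GCB, and they differed in the cell type where they were first high. In BMPC all 6 libraries lay above all 6 nB libraries for 5 of the 5 genes, a pattern seen for 6.01% of all genes tested. In GCB the same held against nB for 4 of the 5 genes, all but Ell2, beside 13.2% of all genes. Between BMPC and GCB it held for 4 of the 5, all but Eaf2, beside 5.13%. These counts describe genes that were chosen with such levels known. The 5 genes together took 0.0279% to 0.0584% of counted reads per nB library (at most 0.0366% without Dnmt3-deficient replicate 2), 0.199% to 0.279% per GCB library and 3.63% to 10.2% per BMPC library.

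**Figure D1:**
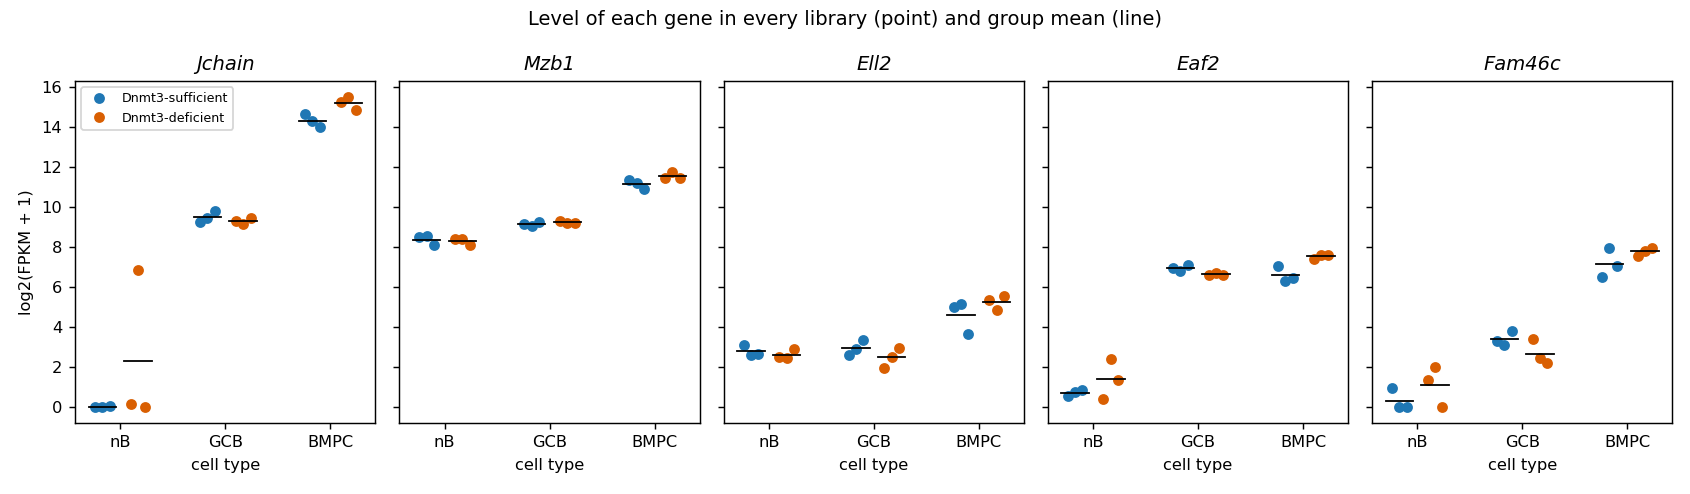
Level of each gene on the log2(FPKM + 1) scale (vertical axis) in every library by cell type (horizontal axis), with Dnmt3-sufficient libraries in blue, Dnmt3-deficient libraries in orange and a line at the mean of each group of 3. Jchain and Fam46c step up from nB to GCB to BMPC, Eaf2 is near its full level in GCB, Ell2 is higher in BMPC than in nB and GCB, and 1 Dnmt3-deficient nB library sits apart in Jchain at 113 FPKM.

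Jchain spanned the widest range. Dnmt3-sufficient nB libraries held it at 0, 0 and 0.0529 FPKM, and Dnmt3-deficient nB libraries at 0.119, 113 and 0 FPKM. It reached 609, 687 and 882 FPKM in Dnmt3-sufficient GCB and 632, 562 and 689 FPKM in Dnmt3-deficient GCB. In BMPC it stood at 25611, 20147 and 16189 FPKM in Dnmt3-sufficient libraries, against 39020, 46609 and 29771 FPKM in Dnmt3-deficient ones. The ranges of the 3 cell types did not overlap. Among the genes listed in the deposited table, Jchain was first by FPKM in each of the 6 BMPC libraries. By reads it was second, behind Rprl1, listed as an RNase P RNA-like gene. The paper, which assigned immunoglobulin reads with a separate annotation, reports very high immunoglobulin levels in BMPC. Ranks and shares given here hold among the listed genes only. Rprl1 took 6.72% to 9.85% of reads in Dnmt3-sufficient and 10.3% to 12.1% in Dnmt3-deficient BMPC libraries. In nB and GCB libraries Rprl1 took at most 0.309%. Its reads are part of the total behind every share, and which transcripts they came from was not tested. In GCB Jchain ranked 76 to 129 by FPKM. Among Dnmt3-sufficient mice the mean was at least 110897-fold higher in BMPC than in nB and 28.4-fold higher in BMPC than in GCB. For the first of these each nB library, at 0, 0 and 1 reads, was set at a floor of 3 reads. Amplified reads are not independent molecules, so this floor covers counting error only.

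The nB library with 113 FPKM of Jchain held 1669 Jchain reads, against at most 0.119 FPKM in the other 5 nB libraries. Its level was 0.294% of the mean of Dnmt3-deficient BMPC. The same library was also the highest of the 6 nB libraries in Eaf2, at 4.26 FPKM against 0.330 to 1.55, and in Fam46c, at 3.02 FPKM against 0 to 1.54. It was not the highest in Mzb1, at 338 FPKM against 273 to 368, or in Ell2, at 4.41 FPKM against 4.76 to 7.52. Of the 7 plasma cell markers only Irf4 was above all other nB libraries, at 31.0 FPKM against 17.2 to 30.3. Derl3, which acts in endoplasmic reticulum-associated degradation and is no member of that list, was also highest there, at 10.5 FPKM on 98 reads against 0 to 6.60. Tnfrsf17, the BCMA receptor of plasma cells, was at 0 in all 6, and Sdc1, which encodes CD138, was at 0.466 FPKM against 0 to 1.11. Whether a few antibody-secreting cells were in this sort was not tested.

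The promoters are shown because methylation acts on CpG dinucleotides and because the genes differ in how many they have near the start. RefSeq promoter windows (GRCm38.p6) were found for 4 of the 5 genes, all but Mzb1, and each matched mm9 exactly at 1 place. Below are the 250 bases before the RefSeq start of Jchain (chr5:88956923-88957172, minus strand) and Ell2 (chr13:75844682-75844931, plus strand), 5′ to 3′ on the gene's strand, with each CpG in capitals.
Jchain: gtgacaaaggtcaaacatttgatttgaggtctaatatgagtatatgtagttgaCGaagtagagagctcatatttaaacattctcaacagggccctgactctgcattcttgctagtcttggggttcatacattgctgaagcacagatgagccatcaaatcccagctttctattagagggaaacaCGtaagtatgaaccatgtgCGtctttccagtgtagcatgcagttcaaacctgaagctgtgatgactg
Ell2: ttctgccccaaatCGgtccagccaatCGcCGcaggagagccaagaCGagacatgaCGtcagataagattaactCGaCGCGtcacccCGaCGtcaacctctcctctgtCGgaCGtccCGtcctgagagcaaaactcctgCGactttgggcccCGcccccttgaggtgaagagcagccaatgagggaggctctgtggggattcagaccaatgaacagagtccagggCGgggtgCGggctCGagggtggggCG
Jchain, the gene with the widest range, held 3 CpGs here and 29.0% of 32851 RefSeq promoter windows of this length held fewer. Ell2 held 19, with fewer in 80.3% of windows. The windows of Fam46c and of the most upstream start of Eaf2 held 37 and 10 CpGs, with fewer in 97.8% and 62.2% of windows. They are not printed because they run into the annotated transcript. Eaf2 had 3 listed starts, and the windows of those further downstream held 27 and 3 CpGs. Which start was used in these cells was not tested, and the letters read below are those of the most upstream one. The median of all windows was 6 CpGs. Read on both strands, the letters ACGTG, the core of sites bound by XBP1, occurred once in Jchain and once in Eaf2 and in neither of the other windows, beside 16.6% of all windows. CAGGTG, an E-box, occurred once in Eaf2 only (17.2% of all windows), and neither CAGCTG (13.0%) nor the octamer ATGCAAAT (526 windows) occurred in any of the 4. These matches are descriptions of the letters only, and no methylation values were used here.

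Mzb1 was already abundant in naive cells, unlike Jchain. It was at 355, 368 and 273 FPKM in Dnmt3-sufficient nB and at 339, 338 and 275 FPKM in Dnmt3-deficient nB. In GCB it stood at 567, 520 and 602 FPKM and at 632, 591 and 583 FPKM, in the same order of genotypes. In BMPC it reached 2622, 2370 and 1908 FPKM in Dnmt3-sufficient and 2758, 3391 and 2792 FPKM in Dnmt3-deficient libraries. The cell types did not overlap, while the genotypes overlapped in nB and in GCB. Means of the Dnmt3-sufficient groups were 1.70-fold higher in GCB and 6.92-fold higher in BMPC than in nB. Mzb1 ranked 7 to 42 by FPKM in BMPC and 181 to 258 in nB. Per length, Jchain was level with Mzb1 in GCB, with a ratio of FPKM of 0.951 to 1.46, and stood 8.49 to 14.1 times above it in BMPC.

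Ell2 and its partner Eaf2 did not follow the same order of cell types. Ell2 was at 7.52, 5.02 and 5.37 FPKM in Dnmt3-sufficient nB and at 4.76, 4.41 and 6.46 FPKM in Dnmt3-deficient nB. In GCB it was at 5.01, 6.39 and 9.42 FPKM and at 2.90, 4.77 and 6.88 FPKM. These 4 groups overlapped with each other. In BMPC it was at 31.3, 34.7 and 11.6 FPKM in Dnmt3-sufficient and at 40.4, 28.1 and 45.9 FPKM in Dnmt3-deficient libraries, all above every nB and GCB library. The Dnmt3-sufficient library at 11.6 FPKM rested on 231 reads and was the lowest BMPC library.

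Eaf2 was nearly undetected in naive cells, at 0.460, 0.690 and 0.832 FPKM in Dnmt3-sufficient and 0.330, 4.26 and 1.55 FPKM in Dnmt3-deficient nB. It was at 124, 109 and 139 FPKM in Dnmt3-sufficient GCB and at 97.4, 105 and 94.6 FPKM in Dnmt3-deficient GCB. In BMPC it was at 134, 77.2 and 87.0 FPKM in Dnmt3-sufficient and at 168, 191 and 194 FPKM in Dnmt3-deficient libraries. Among Dnmt3-sufficient mice GCB and BMPC overlapped, with a mean 188-fold above nB in GCB and 150-fold above nB in BMPC. Among Dnmt3-deficient mice all 3 BMPC libraries lay above all 3 GCB libraries, 1.86-fold in the mean. Per length, Eaf2 exceeded Ell2 by 13.8 to 33.6 times in GCB and by 2.23 to 7.48 times in BMPC, whereas in nB the ratio was 0.0612 to 0.968, and at most 0.241 without Dnmt3-deficient replicate 2. These ratios depend on the deposited lengths. In reads, Dnmt3-sufficient BMPC replicate 2 held 667 for Eaf2 against 721 for Ell2, and the other BMPC libraries held more for Eaf2.

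Fam46c was at 0.957, 0 and 0 FPKM in Dnmt3-sufficient nB and at 1.54, 3.02 and 0 FPKM in Dnmt3-deficient nB. It was at 8.75, 7.74 and 13.2 FPKM in Dnmt3-sufficient GCB and at 9.58, 4.45 and 3.57 FPKM in Dnmt3-deficient GCB. In BMPC it was at 88.2, 243 and 132 FPKM and at 186, 225 and 250 FPKM. The 3 cell types did not overlap, and the genotypes overlapped in each of them. The Dnmt3-sufficient means were 15.6-fold higher in BMPC than in GCB. Of its relatives, Fam46a went the other way, at 10.6 ± 3.67 FPKM (SD, n = 3) in Dnmt3-sufficient nB against 1.80 ± 2.15 in BMPC, a log2 difference of -2.31 (SE 0.48) with an adjusted p of 0.00118 in limma. Fam46a was at 0 in the 3 Dnmt3-sufficient GCB libraries, Fam46b was at 0 in all 18 libraries and Fam46d was above 0 in 1, at 0.441 FPKM, which left Fam46c as the family member with the highest mean in GCB and in BMPC.

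The second question was whether these genes differed between the genotypes within a cell type. Only Dnmt3-deficient mice carried Cre, so loss of Dnmt3 and carrying Cre cannot be told apart. Genotypes were compared with limma on log2(FPKM + 1) over all 18 libraries, as Dnmt3-deficient minus Dnmt3-sufficient, with Benjamini-Hochberg adjustment over all 11522 genes. To pass, a gene needed both an adjusted p no higher than 0.05 and a difference of 1 or more on this scale. In nB 0 of the 5 genes passed, beside 0.0521% of all genes, and 0 of the 5 but 312 of all genes had an unadjusted p under 0.05. In nB the groups overlapped for each of the 5, while they did not overlap for 8.84% of all genes. In GCB 0 of the 5 and 0% of all genes passed in limma, while 124 of all genes and 0 of the 5 had an unadjusted p under 0.05. Eaf2 was the only one of the 5 whose genotypes did not overlap in GCB, lower in all 3 Dnmt3-deficient libraries by a log2 difference of -0.32 (SE 0.41, adjusted p = 1), and groups did not overlap for 10.6% of all genes.

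In BMPC all 5 genes had a higher mean in Dnmt3-deficient than in Dnmt3-sufficient libraries, where 40.1% of all genes tested had a positive difference, and 0 of the 5 passed the test. Of all genes 1.34% passed as higher and 2.65% as lower. These are 154 and 305 genes, and 193 and 239 with median of ratios scaling, which moved the median of all genes from -0.05 to 0. The paper, with edgeR on read counts, reports the opposite balance, with more genes upregulated than downregulated in Dnmt3-deficient BMPC. The genotypes did not overlap for 3 of the 5 genes, Jchain, Mzb1 and Eaf2, beside 10.3% of all genes. Jchain was at 20649 ± 4731 FPKM (SD, n = 3) in Dnmt3-sufficient and 38467 ± 8433 FPKM in Dnmt3-deficient BMPC, a ratio of 1.86 and a log2 difference of 0.90 (SE 1.12, adjusted p = 0.738, limma). Mzb1 was at 2300 ± 362 against 2980 ± 356 FPKM, with a log2 difference of 0.38 (SE 0.14, adjusted p = 0.125, limma). Eaf2 was at 99.3 ± 30.2 against 184 ± 13.9 FPKM, with a log2 difference of 0.92 (SE 0.41, adjusted p = 0.209, limma). Mzb1 and Eaf2 had unadjusted limma p-values of 0.0148 and 0.0374, and 2342 of the 11522 genes tested had one under 0.05. Ell2 (log2 difference 0.65, SE 0.47) and Fam46c (0.62, SE 0.55) overlapped between genotypes and had adjusted limma p-values of 0.467 and 0.571. The difference of Fam46c was 0.29 without Dnmt3-sufficient BMPC replicate 1 and 1.01 without replicate 2. A p above the threshold does not show that the genotypes were alike.

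The SE of Jchain in that fit came largely from 1 nB library, because 1 spread per gene was estimated over all groups. Without Dnmt3-deficient nB replicate 2, an alternative chosen after seeing the data, the BMPC difference of Jchain was again 0.90 with an SE of 0.19 and an adjusted limma p of 0.0173. It was then past the adjusted threshold but below the minimum change of 1, so Jchain was not called. A fit to the 6 BMPC libraries alone gave an adjusted limma p of 0.298. The adjusted p-values of the other 4 genes without that library ranged from 0.127 to 0.555.

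**Figure D2:**
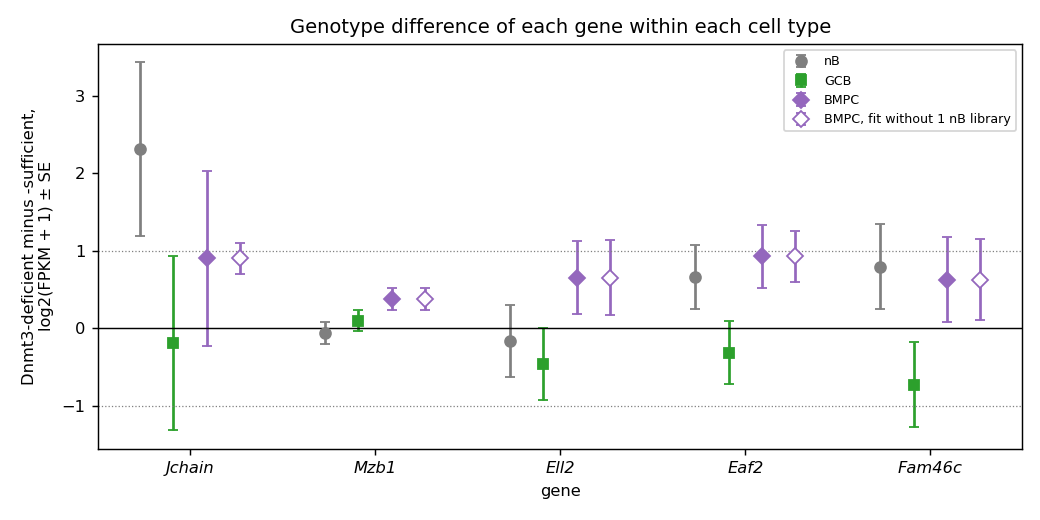
Difference between Dnmt3-deficient and Dnmt3-sufficient means on the log2(FPKM + 1) scale (vertical axis) for each gene (horizontal axis) in nB, GCB and BMPC, with bars of 1 SE from limma and dotted lines at the minimum change of 1. Open diamonds show BMPC without Dnmt3-deficient nB replicate 2. All BMPC differences are between 0.38 and 0.92, and the SE of Jchain falls from 1.12 to 0.19 without that library.

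As a share of counted reads, Jchain was 5.38%, 4.23% and 3.40% in the Dnmt3-sufficient and 8.20%, 9.80% and 6.26% in the Dnmt3-deficient BMPC libraries. The means were 4.34% ± 0.994 and 8.09% ± 1.77 (SD, n = 3 each), a difference of 3.75 percentage points with an exact two-sided permutation p of 0.1, the smallest that 3 against 3 libraries allow. In GCB the shares were 0.153% ± 0.0295 and 0.132% ± 0.0133 (exact permutation p = 0.5). In nB the exact permutation p was 0.4. These are 3 comparisons of 1 measure, and with 3 libraries a side none could reach 0.05. The ratio of Jchain to Mzb1, which does not depend on the library's total, was 8.49 to 9.77 in Dnmt3-sufficient and 10.7 to 14.1 in Dnmt3-deficient BMPC, and the genotypes did not overlap in it.

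Transcripts of other cells differed between the same 6 libraries. Erythroid markers summed to 1160 to 2194 FPKM in the Dnmt3-sufficient and 149 to 797 FPKM in the Dnmt3-deficient BMPC libraries, and macrophage markers to 60.0 to 87.7 and 103 to 227 FPKM, without overlap in either. Plasma cell markers summed to 970 to 1538 and 1453 to 1731 FPKM and overlapped, as did early B cell markers, at 341 to 627 and 308 to 574 FPKM, and neutrophil markers, at 63.4 to 526 and 9.37 to 595 FPKM. The Dnmt3-sufficient library with the most erythroid transcripts, replicate 3, was the lowest of the 6 in Jchain, Mzb1, Ell2 and the plasma cell markers. Without it the BMPC differences of Jchain, Mzb1 and Ell2 were 0.74, 0.25 and 0.18 on the log2 scale, which for Mzb1 and Ell2 is over 1.5 times smaller than with it. The part of these transcripts in the genotype differences was not tested. In bulk samples fewer plasma cells and less of a transcript per plasma cell cannot be told apart.

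**Figure D3:**
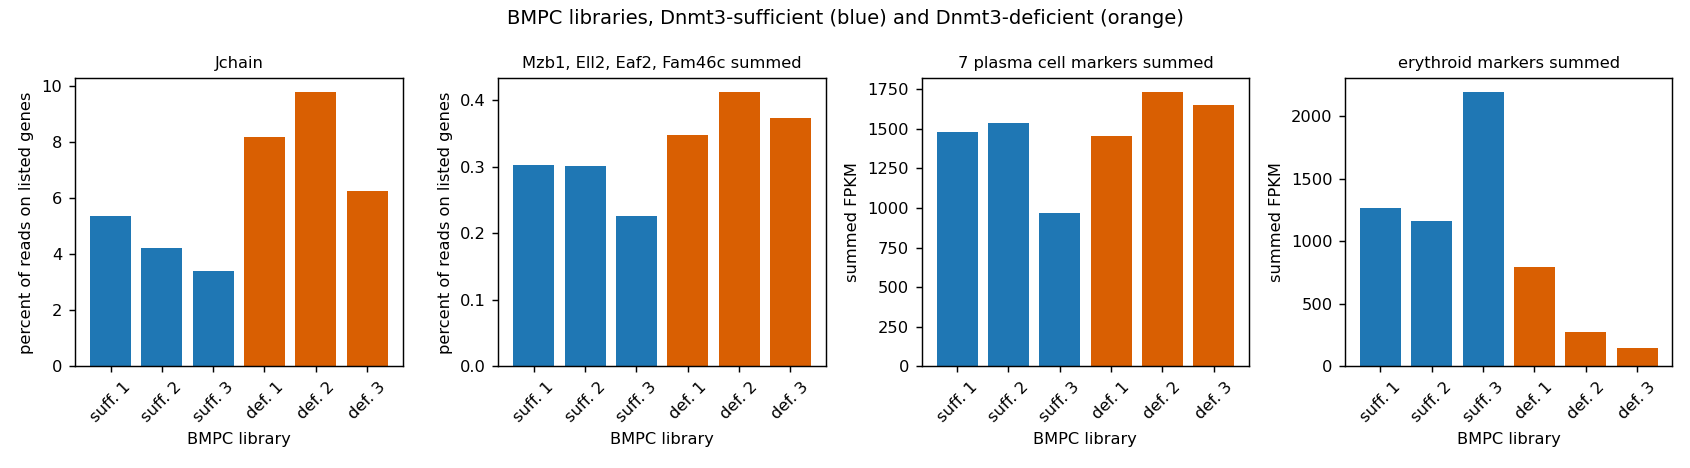
Share of counted reads on Jchain and on the other 4 genes together (left panels, percent) and summed FPKM of plasma cell and erythroid markers (right panels) in each BMPC library, with Dnmt3-sufficient libraries in blue and Dnmt3-deficient in orange. Jchain takes 3.40% to 5.38% of reads in the blue and 6.26% to 9.80% in the orange bars, and erythroid markers are higher in all 3 blue bars.

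The genotype difference was also compared between cell types with interaction terms in the same limma fit. For GCB against nB, 0 of the 5 genes and 0% of all genes passed. For BMPC against nB, 0 of the 5 and 0.555% of all genes passed, and for BMPC against GCB 0 of the 5 and 0.425%. For BMPC against GCB the lowest unadjusted p was that of Eaf2, where the genotype difference was 1.24 larger in BMPC on the log2 scale (SE 0.58, unadjusted p = 0.0467, adjusted p = 0.515). For BMPC against nB that of Mzb1 was lowest, 0.44 larger in BMPC (SE 0.20, unadjusted p = 0.0399, adjusted p = 0.390).

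Genes that work with the 5 were read from lists chosen by function, between BMPC and nB within each genotype, in the same limma fit. The 2 genotypes are separate comparisons with separate controls. In Dnmt3-sufficient mice 9.74% of all genes passed as higher and 27.6% as lower in BMPC, and in Dnmt3-deficient mice 6.85% and 30.6%. The median log2 difference of all genes was -0.70 and -0.84, and the lists are to be read against these shifts.

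Among 12 partners of Ell2 and Eaf2 in transcription elongation, 1 passed as higher and 6 as lower in Dnmt3-sufficient BMPC, and 0 and 7 in Dnmt3-deficient BMPC. Their median log2 differences were -1.85 and -1.68 (-1.59 in the latter with genes at the floor of 3 reads set to it). Ell3, the paralog of Ell2, was at 127 ± 17.5 FPKM (SD, n = 3) in Dnmt3-sufficient nB and at 146 ± 5.69 in GCB. It had 0 reads in all 6 BMPC libraries, a mean at least 248-fold lower in BMPC than in nB in Dnmt3-sufficient mice and at least 126-fold lower in Dnmt3-deficient mice. Ell itself was at 18.5 ± 9.37 FPKM in Dnmt3-sufficient nB and had 0 reads in the 3 Dnmt3-sufficient BMPC libraries, a mean at least 57.4-fold lower, and was at 9.13, 0 and 15.6 FPKM in Dnmt3-deficient BMPC. Ell was named after its values were seen. Ell2 was thus the ELL family gene with the highest level per length in every BMPC library. Larp7, which belongs to the 7SK particle that holds the kinase P-TEFb inactive, was at 44.3 ± 8.14 FPKM in Dnmt3-sufficient nB and 27.1 ± 35.1 in BMPC (limma, adjusted p = 0.0940). Ccnt1, the cyclin subunit of P-TEFb, was at 42.6 ± 8.97 and 14.3 ± 14.6 FPKM (limma, adjusted p = 0.0624). In Dnmt3-deficient mice Ccnt1 passed as lower in BMPC (limma, adjusted p = 0.0429).

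Of 22 genes for 3′ end cleavage and poly(A) tails, 0 passed as higher and 7 as lower in Dnmt3-sufficient BMPC, and 0 and 12 in Dnmt3-deficient BMPC, with median log2 differences of -1.22 and -1.39. Hnrnpf, an RNA-binding protein that competes at the secretory poly(A) site, was at 382 ± 2.32 FPKM in nB and 203 ± 27.2 in BMPC of Dnmt3-sufficient mice, a log2 difference of -0.92 (SE 0.17, limma, adjusted p = 0.000604) that was below the minimum change. In Dnmt3-deficient mice it was -1.12 (SE 0.17, limma, adjusted p = 0.000119) and passed. Nudt21, a subunit of cleavage factor I, was at 48.5 ± 11.4 and 92.0 ± 46.0 FPKM in Dnmt3-sufficient nB and BMPC and did not pass (limma, adjusted p = 0.103). Hnrnph1, a relative of Hnrnpf, was at 127 ± 52.5 and 99.3 ± 19.9 FPKM (limma, adjusted p = 0.746) and passed as lower in Dnmt3-deficient BMPC with a log2 difference of -2.11 (SE 0.60, limma, adjusted p = 0.0104). Within BMPC 1 gene of this list passed as higher in Dnmt3-deficient libraries, Wdr33, and 2 as lower, Cstf1 and Cpsf7, which are named after their calls were seen.

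The folding partners in the endoplasmic reticulum, which act beside Mzb1, lay in the other direction. Of 17 genes 4 passed as higher and 0 as lower in Dnmt3-sufficient BMPC, and 7 and 0 in Dnmt3-deficient BMPC, with median log2 differences of 0.46 and 0.92. Hsp90b1, the chaperone GRP94, was at 254 ± 22.9 FPKM in Dnmt3-sufficient nB, 128 ± 16.7 in GCB and 655 ± 137 in BMPC, with a log2 difference between BMPC and nB of 1.35 (SE 0.20, limma, adjusted p = 7.87e-05). Canx, a lectin chaperone, was at 185 ± 14.0 FPKM in nB and 551 ± 61.6 in BMPC (log2 difference 1.57, SE 0.16, limma, adjusted p = 1.29e-06). Hspa5, the chaperone BiP, was at 430 ± 73.7 and 635 ± 164 FPKM and did not pass (log2 difference 0.54, SE 0.24, limma, adjusted p = 0.0809). Within each cell type 0 of the 17 passed between genotypes.

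Of 5 transcription factors of antibody-secreting cells, 2 passed as higher in BMPC, Xbp1 and Prdm1, and 1 as lower, Pou2f2, in each genotype. Xbp1, the driver of the secretory programme, was at 23.5 ± 17.8 FPKM in nB, 21.1 ± 5.84 in GCB and 671 ± 97.4 in BMPC of Dnmt3-sufficient mice. Xbp1 overlapped between nB and GCB, where Jchain and Eaf2 did not. Pou2af1, the octamer coactivator, was at 130 ± 45.8, 215 ± 33.5 and 98.6 ± 82.6 FPKM. Irf4 was at 27.7 ± 3.74, 5.01 ± 2.62 and 45.6 ± 9.05 FPKM in the same order. In Dnmt3-deficient BMPC Irf4 was at 14.5, 0.315 and 27.9 FPKM, below all 3 Dnmt3-sufficient libraries (37.3, 55.2 and 44.1 FPKM), with a log2 difference of -2.45 (SE 0.79, limma, adjusted p = 0.0814) that did not pass. Pou2f2, named after its values were seen, was at 2.80, 3.17 and 2.61 FPKM in Dnmt3-deficient BMPC, above all 3 Dnmt3-sufficient libraries (0.979, 0.495 and 0 FPKM), with a log2 difference of 1.42 (SE 0.40, limma, adjusted p = 0.0531) that did not pass. The paper, with edgeR on read counts, reports Pou2f2 among the genes upregulated in Dnmt3-deficient BMPC. Within each cell type 0 of these 5 factors passed between genotypes.

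**Figure D4:**
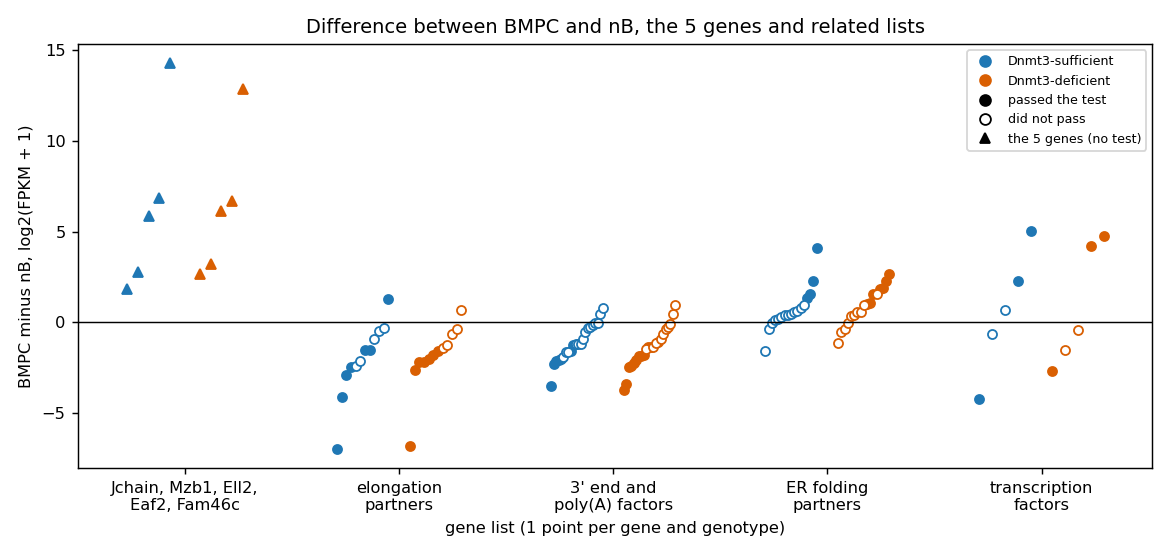
Difference between BMPC and nB means on the log2(FPKM + 1) scale (vertical axis) for the 5 genes (triangles, no test) and for 4 lists of related genes (circles, horizontal axis), with Dnmt3-sufficient in blue, Dnmt3-deficient in orange and filled circles for genes that passed in limma. The 5 genes range from 1.83 to 14.3 in Dnmt3-sufficient mice, most elongation and poly(A) factors lie below 0, and most folding partners lie above it.

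The genes whose profiles over the 18 libraries were most like each member were found by Pearson's r on log2(FPKM + 1). These values describe 18 libraries in 6 groups that share cell type, depth and sort, and carry no p. For Jchain they were Id2 (r = 0.971), Pafah1b3, Fut8, Cbx3 and Adk, and each of these 5 had its median lowest in nB, higher in GCB and highest in BMPC. For Mzb1 they were Pon3 (r = 0.985), Ptges3, Sec61b, Spcs1 and Ndufa1, of which Sec61b and Spcs1 belong to the translocon and the signal peptidase. For Ell2 they were Herpud1 (r = 0.954), Cdh23, Tnfrsf17, Ly6i and Kdelr2. Tnfrsf17 had medians of 0, 0.305 and 499 FPKM in nB, GCB and BMPC, with BMPC above both other cell types as for Ell2. For Eaf2 they were Slc25a5 (r = 0.965), Stmn1, Ywhae, H2afz and Cks1b. Of these Cks1b, a cell cycle regulator, had medians of 12.9, 379 and 268 FPKM in nB, GCB and BMPC, and like Eaf2 was high from GCB on. For Fam46c they were Ndufa1 (r = 0.975), Pon3, Mzb1 (r = 0.974), Prdx4 and Derl3. Mzb1 was the only one of the 5 genes to appear in another's list.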

How the data were processed

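Transcripts were measured by RNA-seq of amplified cDNA. The authors mapped read pairs to mm9 and counted reads that overlap exons of UCSC KnownGenes, and the deposited values are FPKM, computed by the authors from those counts, the exon length and all reads counted on the listed genes. Whether strand was used is not given in the sources used here, so overlapping genes are uncertain. Fold changes, P values and FDR of the authors' edgeR model, also in the table, were not used. Immunoglobulin genes were not analysed here, and whether reads from them are in the totals was not tested. FPKM times exon length gave whole reads for 100% of values (tolerance 0.001 reads), which gave the depth of each library.

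Groups, sex and the replicate numbers of GCB came from the labels. The libraries of nB and BMPC came from separate mice. limma 3.58.1 (R 4.3.3) was fitted to log2(FPKM + 1), with 1 mean per group over 18 libraries and an intensity trend, two-sided, for genes over 1 FPKM in 2 or more libraries. Differences on this scale understate changes of low genes. FPKM compares genes per length. The members and all gene lists were chosen with earlier results of these data known. Genes named were the 5 members, the 3 genes of each related list with the highest mean FPKM over the 18 libraries, all Fam46 relatives and the 5 genes most like each member. Single shares were compared by exact permutation. Where all libraries of a group had at most 3 reads, a fold was computed with each at 3 reads. The fit was tested on simulated data. Alternatives were a pseudocount of 0.1, other filters, median of ratios scaling, removal of Jchain reads, sex as a covariate, quality weights, voom on the recovered reads, fits to 1 cell type, a replicate block in GCB and leaving out each library. Replicate numbers of nB and BMPC follow accession order and pair nothing. The gene that drives Cre is not reported here.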

Additional observations from a re-analysis of the deposited data

How the results depend on the processing

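In every setting run, 0 of the 5 genes passed between genotypes in limma, in nB, GCB or BMPC or in an interaction, and all 6 BMPC libraries lay above all 6 nB libraries for 5 of 5 genes. In BMPC the direction of all 5 genes was the same in every setting. Adjusted limma p-values passed 0.05 below the minimum change of 1 for Jchain with voom (log2 difference 0.90, adjusted p = 0.00162) and without Dnmt3-deficient nB replicate 2, and for Mzb1 with median of ratios scaling (0.56, adjusted p = 0.0487). With quality weights per library the adjusted p of the 5 genes in BMPC was 0.919 to 1. The genotype difference in BMPC relative to nB turned direction for Eaf2 with a pseudocount of 0.1 (-0.039) and for Fam46c with median of ratios scaling (0.060). Leaving out 1 library gave -0.22 to 0.77 for Eaf2, -0.73 to 0.27 for Fam46c and -2.58 to 0.84 for Jchain in that interaction, the last turning without Dnmt3-deficient nB replicate 2, and -0.19 to 0.039 for the genotype difference of Mzb1 in nB. The cause was not tested. With the replicate block in GCB 0 genes passed and the difference of Eaf2 was -0.32 (adjusted p = 1). Same-numbered GCB libraries did not deviate together (correlations of -8.06e-05, -0.0171 and 0.0257), so the numbers were not taken as pairs. Genes called higher and lower in BMPC over all genes were 154 and 305, 106 and 156 with voom, 9 and 9 with quality weights, 0 and 0 in the BMPC libraries alone, and 211 to 275 and 328 to 654 without 1 BMPC library. Jchain gave no value in the fit to nB alone, where it did not pass the filter. Low counts limit the comparisons of Jchain, Eaf2 and Fam46c in nB, where most libraries held few or 0 of their reads, and 3 libraries a group limit every genotype comparison.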
